A study of Homo sapiens with 6 samples.

Results

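The 10 Kruppel-like factor genes KLF2, KLF3, KLF4, KLF5, KLF6, KLF7, KLF9, KLF10, KLF11 and KLF13 were followed in MDA-MB-231 cells, a human line from triple-negative breast cancer. They were found by symbol from the Ensembl identifiers, and they are 10 of the 63241 genes listed and of the 15295 genes that had enough counts to be tested. Cells received either 5 μM NCD (nitidine chloride, a plant alkaloid) or vehicle, 0.1% DMSO, for 24 h, and RNA-seq was done on 3 libraries per group.

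Kruppel-like factors are transcription factors whose closely alike zinc fingers at the C-terminal end bind GC-rich DNA such as CACCC boxes and GC boxes. The N-terminal ends differ and give 3 classes: factors that recruit acetyltransferases (here KLF2, KLF4, KLF5, KLF6 and KLF7), factors that bind the co-repressor CtBP (KLF3), and factors that bind the co-repressor Sin3A (KLF9, KLF10, KLF11 and KLF13). In epithelial tumours KLF5 is known for promoting proliferation, whereas KLF4 and KLF6 are described as restraining the cell cycle in many settings, and several of these proteins are short-lived and controlled by ubiquitin ligases.

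The start-site windows of the 5 members that passed both thresholds of the test are printed because these genes moved in both directions and carry the result. RefSeq promoter windows on GRCh38.p14 were found for 8 of the 10 genes. They run from 250 bases before to 50 bases after a start site. In the windows printed here, that site lay away from an annotated transcript start of the gene. The offset was 123 bases for KLF4, 213 for KLF5, 274 for KLF11, 33 for KLF9 and 66 for KLF6. Base content and motif counts therefore hold for these windows and need not hold at the other start. Capitals mark each CACCC box (CACCC or, on the other strand, GGGTG) and each GC box (GGGCGG or, on the other strand, CCGCCC). The windows are KLF4 at chr9:107489720-107490019 on the minus strand, KLF5 at chr13:73058755-73059054 on the plus strand, KLF11 at chr2:10043579-10043878 on the plus strand, KLF9 at chr9:70414608-70414907 on the minus strand and KLF6 at chr10:3785160-3785459 on the minus strand.
KLF4: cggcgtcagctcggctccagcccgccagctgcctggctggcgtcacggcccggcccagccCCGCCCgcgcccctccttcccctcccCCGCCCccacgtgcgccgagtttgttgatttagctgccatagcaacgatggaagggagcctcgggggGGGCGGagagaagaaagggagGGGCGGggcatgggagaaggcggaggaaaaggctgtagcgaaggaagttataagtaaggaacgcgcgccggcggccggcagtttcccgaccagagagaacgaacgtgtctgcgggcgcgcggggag
KLF5: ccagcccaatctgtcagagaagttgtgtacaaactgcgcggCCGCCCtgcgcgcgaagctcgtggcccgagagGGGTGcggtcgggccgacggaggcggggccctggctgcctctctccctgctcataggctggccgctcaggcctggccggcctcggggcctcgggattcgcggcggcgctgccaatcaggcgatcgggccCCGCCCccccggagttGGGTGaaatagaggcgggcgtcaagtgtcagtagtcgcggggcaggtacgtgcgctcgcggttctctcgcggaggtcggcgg
KLF11: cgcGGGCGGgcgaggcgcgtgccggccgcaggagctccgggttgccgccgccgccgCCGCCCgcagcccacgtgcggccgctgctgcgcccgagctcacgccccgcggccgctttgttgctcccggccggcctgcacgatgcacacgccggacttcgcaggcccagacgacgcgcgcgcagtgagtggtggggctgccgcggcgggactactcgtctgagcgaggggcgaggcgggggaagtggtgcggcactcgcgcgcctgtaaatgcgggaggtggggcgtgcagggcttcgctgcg
KLF9: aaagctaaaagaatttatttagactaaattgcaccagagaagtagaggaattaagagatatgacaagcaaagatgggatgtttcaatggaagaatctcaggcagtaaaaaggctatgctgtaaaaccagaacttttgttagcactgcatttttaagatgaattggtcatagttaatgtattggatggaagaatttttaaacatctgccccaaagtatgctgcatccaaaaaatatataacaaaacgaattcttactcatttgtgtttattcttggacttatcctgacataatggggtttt
KLF6: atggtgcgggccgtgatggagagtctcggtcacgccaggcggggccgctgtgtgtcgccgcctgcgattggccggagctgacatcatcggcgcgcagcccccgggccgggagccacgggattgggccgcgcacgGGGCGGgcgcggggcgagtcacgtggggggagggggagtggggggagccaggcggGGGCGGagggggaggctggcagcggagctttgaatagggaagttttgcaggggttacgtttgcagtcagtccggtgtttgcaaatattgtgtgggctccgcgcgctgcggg

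The windows of KLF4, KLF5, KLF11 and KLF6 were rich in G and C (69.0%, 71.3%, 77.3% and 70.7%), and that of KLF9 was poor in them (32.7%), where the median of all 35116 windows was 58.7%. The GC box occurred 4 times in the KLF4 window and 2 times in each of the KLF5, KLF11 and KLF6 windows, and 45% of all windows held it at least once. The CACCC box, held by 59.9% of all windows, occurred 2 times in the KLF5 window. The KLF9 window held neither motif and had the CCAAT box (CCAAT or ATTGG) 2 times, as did those of KLF5 and KLF6, against 34.6% of all windows with any. An E-box, CACGTG, lay in the KLF4, KLF11 and KLF6 windows and in 7.26% of all windows. The AP-1 site TGACTCA (4.95% of all windows) and the TATA box TATAAA (11.5%) were in none of the 5. The cAMP response element TGACGTCA, in 1.85% of all windows, was in none of the 5 either, although it was in another start-site window of KLF11. No motif was shared by all 5 windows, and a missing match says only that these letters are not in this window.

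The libraries held 18223594 to 21629653 counts, and log2 expression correlated at 0.9835 or more within a group and at 0.8914 or less between groups. Levels are given in CPM, which are counts scaled to a common library size (TMM). Labels do not say whether the 3 libraries of a group came from separate cultures, so p-values measure only the spread between these libraries, which may be technical. Of the markers of MDA-MB-231, VIM was at 2491 to 3156 CPM, and ESR1, PGR and CDH1 were at 0.384 CPM or less in every library. KRT8 and KRT18 were present in both groups (412 and 400 CPM with DMSO, 596 and 483 CPM with NCD). CD44 (977 to 277 CPM, log2 fold change -1.82) and EGFR (170 to 27.9 CPM, -2.61) were present and lower with NCD. EPCAM was low but not absent, at 2.71 CPM with DMSO and 4.01 CPM with NCD. Of 4 fibroblast genes, DCN and LUM were at or near 0 (0.121 CPM or less), and COL1A1 and PDGFRB, the 2 that could be tested, were both higher with NCD, so that the sum of the 4 went from 4.13 to 5.32 CPM with DMSO to 18.6 to 19.9 CPM with NCD. Of 5 endothelial genes, PECAM1, CDH5, VWF and TEK stayed below 1 CPM and KDR was at 8.17 to 15.1 CPM (sum of the 5, 11 to 16.4 CPM with DMSO and 8.80 to 11.4 CPM with NCD). Of 5 blood cell genes, PTPRC, CD3E and MS4A1 were at or near 0, and CD68 made up most of a sum of 81.5 to 90.9 CPM with DMSO and 86.6 to 95.9 CPM with NCD. The part of other cells in the members' values was not tested.

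Between NCD and DMSO, 4 of the 10 Kruppel-like factors rose (KLF4, KLF5, KLF9 and KLF11) and 1 fell (KLF6). Here a gene is said to have risen or fallen at an adjusted p below 0.05 (edgeR's quasi-likelihood test, adjusted by Benjamini-Hochberg over all tested genes) together with an absolute log2 fold change above 1. Among all 15295 tested genes 31.0% passed this rule, 13.5% higher and 17.5% lower. At any fold, 8 of the 10 had an adjusted p below 0.05 (5 higher and 3 lower), where 69.3% of all tested genes did. The CPM of the groups did not overlap for 8 of the 10, where this was so for 72.6% of all tested genes. The median log2 fold change of the 10 was 0.17 against 0.04 over all tested genes. Scaling by library totals in place of TMM shifted that overall median by 0.20 and moved the split of all calls from 2067 higher of 4736 to 2793 higher of 4974, and the 10 genes kept 4 higher and 1 lower. In bulk RNA, fewer cells that express a gene and less of its RNA per cell cannot be told apart.

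**Figure D1:**
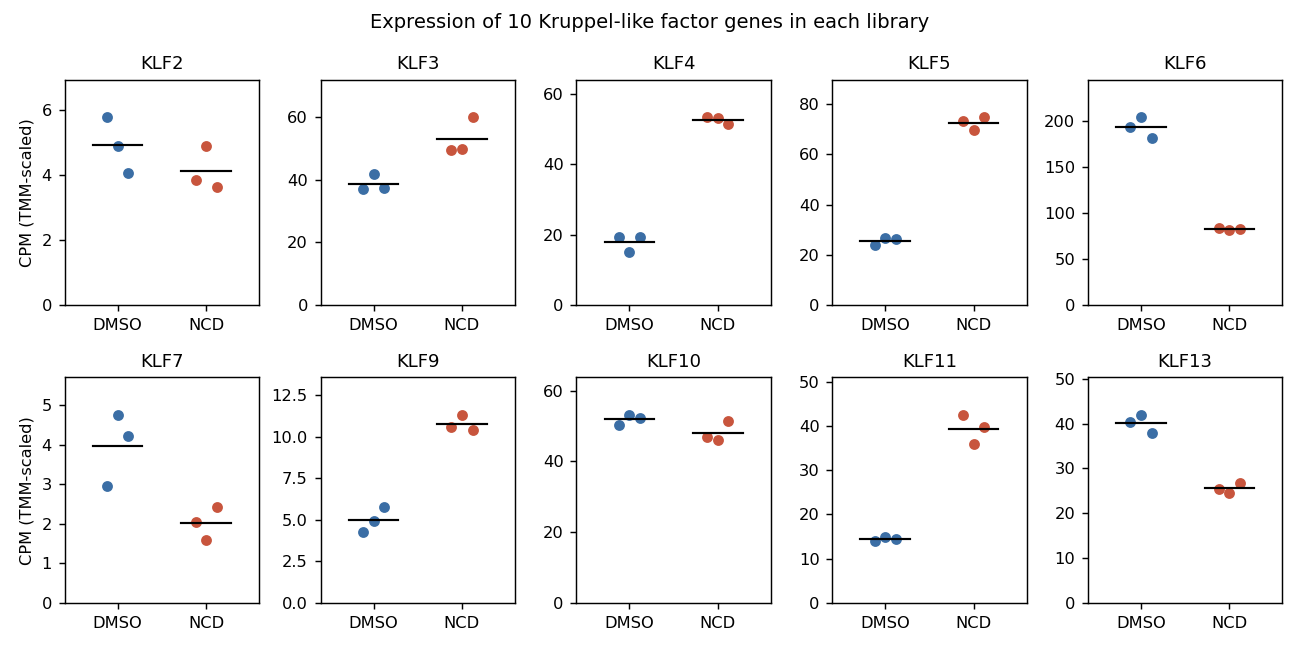
CPM of each of the 10 Kruppel-like factors in the 3 DMSO and the 3 NCD libraries (points; the bar in each group is its mean), each gene on its own linear axis that starts at 0. For KLF4, KLF5, KLF9 and KLF11 every NCD library lay above every DMSO library, for KLF6 every NCD library lay below, and for KLF2 and KLF10 the groups overlapped.

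Of the 5 members that recruit acetyltransferases, KLF4 and KLF5 rose and KLF6 fell. KLF4 (ENSG00000136826; chromosome 9, 107484852 to 107490482, minus strand, in GENCODE release 29 on GRCh38) is a factor of epithelial barrier formation and of pluripotency. Its level was 19.5, 15.2 and 19.3 CPM in the DMSO libraries and 53.4, 53.2 and 51.6 CPM in the NCD libraries. All 3 NCD libraries stood above all DMSO libraries, and they lay closer to each other (range 0.05 on the log2 scale) than the DMSO libraries did (0.36). KLF4 thus went from 18 ± 2.45 to 52.7 ± 1.00 CPM (SD, n = 3), a log2 fold change of 1.55 (standard error 0.10, 95% confidence interval 1.32 to 1.78, edgeR adjusted p = 1.44e-06). This was the largest absolute log2 fold change among the 10 with all libraries, ahead of KLF5 by less than its standard error, and without DMSO replicate 2 it was 1.43 against 1.52 for KLF5.

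KLF5 (ENSG00000102554; chromosome 13, 73054976 to 73077542, plus strand) is a factor of proliferating epithelium. It stood at 23.9, 26.8 and 26.5 CPM with DMSO and at 73.4, 69.9 and 74.8 CPM with NCD. The NCD libraries again all lay above the DMSO libraries. From 25.7 ± 1.58 to 72.7 ± 2.50 CPM (SD, n = 3) the log2 fold change was 1.5 (standard error 0.07, 95% confidence interval 1.33 to 1.67, edgeR adjusted p = 2.6e-07), which is 2.82-fold.

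KLF6 (ENSG00000067082; chromosome 10, 3775996 to 3785281, minus strand), a widely expressed factor described as a tumour suppressor, was the member with most counts in the control. Its DMSO libraries had 193, 204 and 182 CPM and its NCD libraries 83.8, 81.4 and 82.9 CPM. Every NCD library was below every DMSO library, with little spread in either group. KLF6 fell 2.33-fold, from 193 ± 10.7 to 82.7 ± 1.18 CPM (SD, n = 3), with a log2 fold change of -1.22 (standard error 0.06, 95% confidence interval -1.36 to -1.09, edgeR adjusted p = 2.64e-07).

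KLF2 and KLF7, the other two of this class, had few counts and did not pass the rule. KLF2 (ENSG00000127528; chromosome 19, 16324817 to 16327874, plus strand), a factor of quiescent endothelium and lymphocytes, had 5.79, 4.92 and 4.06 CPM with DMSO and 3.85, 4.92 and 3.64 CPM with NCD. The groups overlapped, and the log2 fold change was -0.25 (standard error 0.19, 95% confidence interval -0.68 to 0.17, edgeR adjusted p = 0.254), an interval that leaves room for a change in either direction. KLF7 (ENSG00000118263; chromosome 2, 207074137 to 207167267, minus strand), known from neurons and fat cells, had 2.95, 4.75 and 4.22 CPM with DMSO and 2.05, 1.6 and 2.42 CPM with NCD. All 3 NCD values were below the DMSO values, but the libraries within each group spread by 0.69 and 0.60 on the log2 scale, the widest of the 10 genes in each group. Its log2 fold change of -0.97 (standard error 0.24, edgeR adjusted p = 0.0056) passed the p threshold and just missed the fold threshold. It became -1.17 without DMSO replicate 1 and -1.13 without NCD replicate 3 (edgeR adjusted p = 0.00199 and 0.00369), and KLF7 then passed both thresholds.

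KLF3 (ENSG00000109787; chromosome 4, 38664196 to 38701042, plus strand), the CtBP-binding repressor among the 10, did not pass the fold threshold. It had 36.9, 41.8 and 37.2 CPM with DMSO and 49.4, 49.8 and 59.8 CPM with NCD. The groups did not overlap, and NCD replicate 3 stood above the other two. The log2 fold change was 0.46 (standard error 0.10, 95% confidence interval 0.24 to 0.68, edgeR adjusted p = 0.00236), or 1.37-fold higher. The antisense gene KLF3-AS1, which overlaps it, had 3 to 8.34 counts per library, at most 0.922% of those of KLF3.

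Of the 4 Sin3A-binding members, KLF9 and KLF11 rose, and KLF10 and KLF13 did not pass the rule. KLF9 (ENSG00000119138; chromosome 9, 70384597 to 70414624, minus strand) is a repressor that glucocorticoids and thyroid hormone are known to induce. It had 4.28, 4.92 and 5.76 CPM with DMSO and 10.6, 11.3 and 10.4 CPM with NCD. The lowest NCD library was above the highest DMSO library by a wide margin compared with the spread in either group. KLF9 rose 2.15-fold, from 4.99 ± 0.740 to 10.7 ± 0.478 CPM (SD, n = 3; log2 fold change 1.10, standard error 0.13, 95% confidence interval 0.80 to 1.41, edgeR adjusted p = 7.28e-05). Without DMSO replicate 1, the lowest control library, the log2 fold change was 0.98 (edgeR adjusted p = 0.000335) and KLF9 no longer passed the fold threshold.

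KLF11 (ENSG00000172059; chromosome 2, 10042849 to 10054836, plus strand), a Sin3A-binding repressor and one of the TGF-beta early genes, rose 2.72-fold. Its level was 14.0, 15 and 14.5 CPM with DMSO and 42.5, 36.0 and 39.8 CPM with NCD. The groups lay far apart, and the NCD libraries spread more (0.24 on the log2 scale) than the DMSO libraries (0.09). The means were 14.5 ± 0.477 and 39.4 ± 3.27 CPM (SD, n = 3), with a log2 fold change of 1.44 (standard error 0.09, 95% confidence interval 1.24 to 1.64, edgeR adjusted p = 9.62e-07). The antisense gene AC104794.4 overlaps KLF11 and had 6.67, 18.19 and 11.53 expected counts with DMSO and 59.91, 46.65 and 30.02 with NCD, 2.86% to 6.87% of the counts of KLF11. Since the strandedness of the counting is not stated in the sources used here, reads of the pair cannot be told apart where they overlap.

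KLF10 (ENSG00000155090; chromosome 8, 102648779 to 102655902, minus strand), the TGF-beta-inducible early gene, had 50.4, 53.1 and 52.3 CPM with DMSO and 46.9, 45.9 and 51.3 CPM with NCD. The groups overlapped, since NCD replicate 3 lay above DMSO replicate 1. Its log2 fold change was -0.11 (standard error 0.07, 95% confidence interval -0.27 to 0.05, edgeR adjusted p = 0.182), and the interval leaves out changes as large as those of KLF11. With library totals in place of TMM the sign turned, to 0.08. KLF13 (ENSG00000169926; chromosome 15, 31326855 to 31435665, plus strand), a factor of T cell cytokine expression, had 40.4, 41.9 and 37.8 CPM with DMSO and 25.3, 24.6 and 26.8 CPM with NCD. Every NCD library was below every DMSO library. The log2 fold change of -0.65 (standard error 0.08, 95% confidence interval -0.82 to -0.47, edgeR adjusted p = 6.3e-05) passed the p threshold but not the fold threshold.

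**Figure D2:**
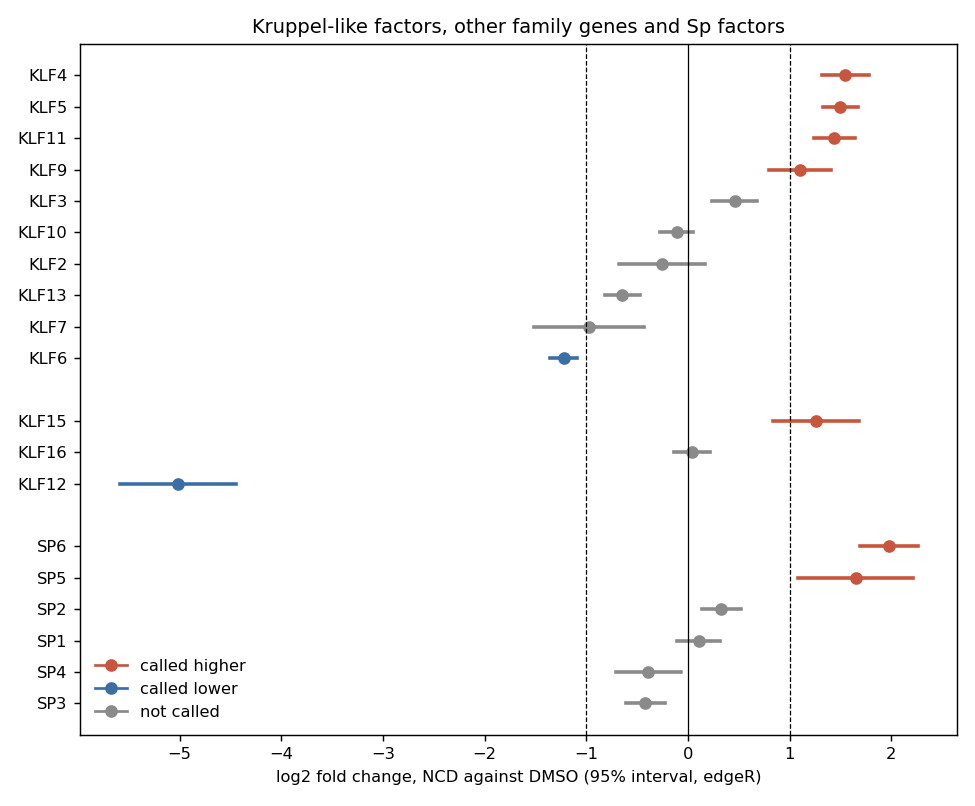
Log2 fold change of each tested Kruppel-like factor and Sp gene, NCD against DMSO, on a linear axis (points; lines mark the 95% confidence interval), with dashed lines at the fold threshold of 1 in each direction. KLF4, KLF5, KLF9 and KLF11 lie to the right of the threshold and KLF6 to the left, and the interval of KLF9 reaches across it (0.80 to 1.41).

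Members that share ancestry or function were next compared within each library, as the log2 ratio of their counts with 0.5 added, which does not depend on scaling. All 5 pairs were tested by an exact two-sided permutation test, whose smallest p with 3 against 3 libraries is 0.1. KLF10 to KLF11, the TGF-beta early genes, had ratios of 1.84, 1.82 and 1.85 with DMSO and 0.14, 0.35 and 0.37 with NCD. The groups did not overlap, and the mean ratio differed by -1.55 (exact p = 0.1, 0.167 after adjustment over the 5 pairs). KLF9 to KLF13 went the other way, from -3.01 ± 0.27 to -1.25 ± 0.12 (SD, n = 3), a difference of 1.76 with no overlap (exact p = 0.1, adjusted 0.167). KLF2 to KLF4, which act together in endothelium, went from -1.87 ± 0.33 to -3.68 ± 0.22 (SD, n = 3), a difference of -1.81 with no overlap (exact p = 0.1, adjusted 0.167). None of these 3 could pass 0.05 in a design of this size. KLF4 to KLF5 had overlapping ratios, with means of -0.52 ± 0.27 and -0.46 ± 0.07 (SD, n = 3; exact p = 0.9, adjusted 0.9), and the difference of 0.06 became -0.09 without DMSO replicate 2. KLF6 to KLF7 also overlapped, at 5.62 ± 0.34 and 5.35 ± 0.28 (SD, n = 3; difference -0.26, exact p = 0.4, adjusted 0.5).

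Levels of different genes were compared as CPM per kb of merged exons. With DMSO, KLF6 led with 31.5 ± 1.75 CPM per kb (SD, n = 3), followed by KLF10 (13.0), KLF5 (6.61), KLF3 (6.13), KLF4 (4.92), KLF13 (4.25), KLF11 (3.16), KLF2 (2.44), KLF9 (0.963) and KLF7 (0.429). Among neighbours in this order the libraries of KLF5 and KLF3 overlapped, and so did those of KLF4 and KLF13. With NCD the order was KLF5 (18.7), KLF4 (14.4), KLF6 (13.5), KLF10 (12), KLF11 (8.59), KLF3 (8.41), KLF13 (2.72), KLF9 (2.08), KLF2 (2.05) and KLF7 (0.219). There KLF11 and KLF3 overlapped, as did KLF9 and KLF2. KLF6 thus moved from the first place to the third, and KLF5 and KLF4 took the places above it. With the length of the principal transcript in place of merged exons, an alternative chosen after seeing the data, KLF3 stood above KLF5 with DMSO and above KLF11 with NCD.

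Of the summed level per kb over all 18 Kruppel-like factor genes, KLF6 made up 37.2% ± 1.23 with DMSO and 14.5% ± 0.188 with NCD (SD, n = 3). The share of KLF5 was 7.83% ± 0.434 with DMSO and 20.1% ± 0.295 with NCD (SD, n = 3). KLF4 stood at 5.84% ± 0.930 and 15.5% ± 0.557, and KLF11 at 3.74% ± 0.0705 and 9.25% ± 0.656 (SD, n = 3). The library values of these 4 shares did not overlap between the groups, but these genes had already passed both thresholds, so this adds no result. A share also moves when other genes of the sum move. The KLF10 share did not overlap either (15.1% to 15.8% with DMSO, 12.6% to 13.6% with NCD), although its CPM did. The sum itself was 83.5, 86.9 and 82.9 CPM per kb with DMSO and 93.1, 90.7 and 94.4 CPM per kb with NCD. Every NCD library was above every DMSO library, with means of 84.4 ± 2.18 and 92.7 ± 1.85 CPM per kb (SD, n = 3). The sum of the 10 members alone also separated, at 71.5 to 75.8 CPM per kb with DMSO and 80.4 to 84.7 CPM per kb with NCD. For the 10 members this separation rests on the division by length. In plain CPM their sums overlapped, at 384 to 412 with DMSO and 379 to 403 with NCD. The plain sums of the 8 other family genes were lower with NCD (45.3 to 51.8 CPM with DMSO, 29.2 to 30.9 CPM with NCD).

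**Figure D3:**
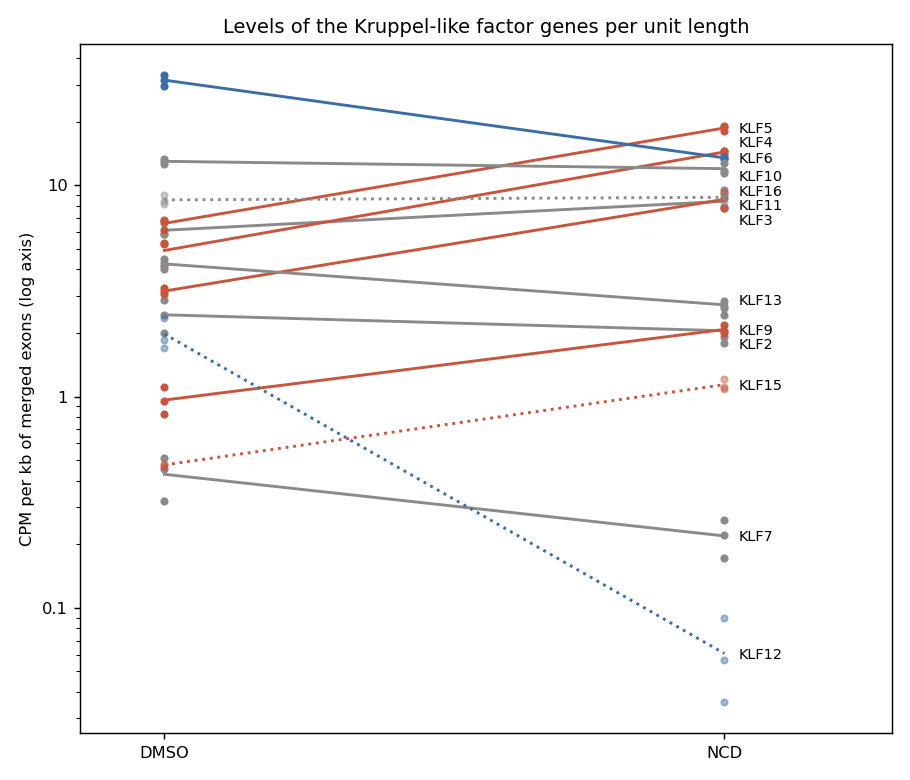
Level of the Kruppel-like factor genes in CPM per kb of merged exons on a log axis, with DMSO on the left and NCD on the right (points are libraries, lines join the means, dotted lines are tested family genes outside the 10). KLF6 goes from 31.5 to 13.5 and is passed by KLF5 at 18.7 and KLF4 at 14.4. KLF12 drops from 1.98 to 0.0608, the lowest NCD level of those drawn.

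Of the 8 other Kruppel-like factor genes, 3 could be tested, and KLF15 rose, KLF12 fell and KLF16 did neither. KLF12, a CtBP-binding repressor like KLF3, was counted 309, 456 and 371 times in the DMSO libraries and 9, 12 and 21 times in the NCD libraries. In CPM these were 18.6, 25.8 and 20.3 against 0.393, 0.621 and 0.979, and its log2 fold change of -5.02 (standard error 0.25, edgeR adjusted p = 2.7e-07) was larger in size than that of any of the 10. It lies 0.61 Mb from KLF5 on chromosome 13, and these neighbours moved in opposite directions. KLF15, a glucocorticoid-induced factor of metabolism, had 1.33, 1.36 and 1.37 CPM with DMSO and 3.45, 3.10 and 3.17 with NCD (log2 fold change 1.26, standard error 0.18, edgeR adjusted p = 0.000241). KLF16 stood at 25.2 ± 1.15 and 26 ± 1.27 CPM (SD, n = 3; log2 fold change 0.04, edgeR adjusted p = 0.667), and the antisense gene AC012615.3, which overlaps it, had 7.33% to 9.26% of its counts. KLF1, KLF8, KLF14, KLF17 and KLF18 had at most 8 counts in any library and were not tested. By class over the whole family, 2 of 5 tested acetyltransferase-binding genes rose and 1 fell. Of the 2 tested CtBP-binding genes 1 fell (KLF12) and none rose, and 2 of 5 Sin3A-binding genes rose and none fell. Over all tested genes 13.5% rose and 17.5% fell, and classes of so few genes allow no reading by class.

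The Sp factors share the zinc fingers and bind GC boxes. SP6 went from 4.85 ± 0.646 to 19.1 ± 1.28 CPM (SD, n = 3; log2 fold change 1.98, edgeR adjusted p = 1.1e-06) and SP5 from 1.78 ± 0.383 to 5.57 ± 1.47 CPM (SD, n = 3; log2 fold change 1.65, edgeR adjusted p = 0.000335). Thus 2 of the 6 tested Sp genes rose and none fell, where 13.5% of all tested genes rose and 17.5% fell. SP2, SP3 and SP4 passed the p threshold only, with log2 fold changes of 0.33, -0.42 and -0.39, and SP1, at 0.11, did not pass it. SP7, SP8 and SP9 had at most 1 count in any library.

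Gene span, the distance from a gene's start to its end with introns, moved with the fold change over all tested genes. The median log2 fold change was 0.39 for genes of 3.7 to 8.0 kb, 0.43 for those of 13.2 to 20.1 kb, 0.11 for those of 29 to 41.2 kb, -0.93 for those of 89.7 to 153.1 kb and -2.09 for longer ones. The longest of the 10, KLF13 (108.8 kb) and KLF7 (93.1 kb), had log2 fold changes of -0.65 and -0.97, on either side of the median of genes of like span. KLF12 spans 309.0 kb. KLF4 (5.6 kb), KLF11 (12 kb), KLF5 (22.6 kb) and KLF9 (30.0 kb) were each above the middle 50% of genes of their span. KLF6 (9.3 kb), with -1.22, was below the middle 50% of genes of its span (0.01 to 0.90), whose median was 0.41. KLF2 (3.1 kb) and KLF3 (36.8 kb) were inside the middle 50% of genes of their span (-0.32 to 0.85 and -0.29 to 0.57), and KLF10 (7.1 kb), with -0.11, was just below it (-0.05 to 0.90). The part of span in these values was not tested.

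**Figure D4:**
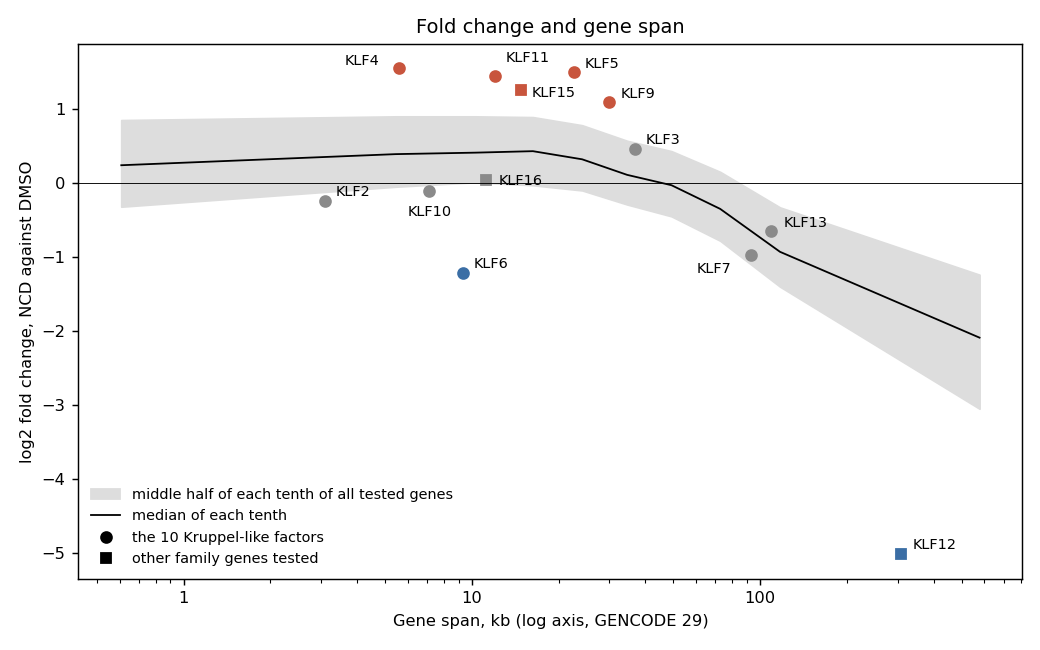
Log2 fold change, NCD against DMSO, against gene span in kb on a log axis (circles are the 10 Kruppel-like factors and squares the other tested family genes; the line is the median of all tested genes in 10 bins of span and the band their middle 50%). KLF4, KLF5, KLF9 and KLF11 lie above the band, KLF6 lies below it, and KLF7 and KLF13 lie within it.

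Genes known to work with the Kruppel-like factors were taken as lists. The counts below stand beside 13.5% of all tested genes that rose and 17.5% that fell by the same rule. Of 10 tested co-repressor and acetyltransferase genes none rose and 3 fell (median log2 fold change -0.30). They were CTBP2, which binds KLF3 (83.5 to 16.3 CPM, log2 fold change -2.35, edgeR adjusted p = 3.76e-08), and the acetyltransferases CREBBP (45.8 to 21.8 CPM, -1.07) and KAT2B (49.8 to 19.0 CPM, -1.39). SIN3A and SIN3B, the partners of KLF9, KLF10, KLF11 and KLF13, neither rose nor fell by the rule, with log2 fold changes of -0.54 and 0.05. SIN3A was lower and passed the p threshold only (edgeR adjusted p = 0.000855), and SIN3B did not pass it (0.564). Of 14 ubiquitin ligases and deubiquitinases reported to act on these proteins 1 rose and 6 fell (median -0.88). WWP1, a ligase for KLF5, went from 55.8 to 16.4 CPM (-1.76), BTRC from 37.5 to 6.82 CPM (-2.45) and SMURF2 from 338 to 46.8 CPM (-2.85), while VHL, reported as a ligase for KLF4, went from 89.1 to 202 CPM (1.18).

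Upstream of KLF2 and KLF4 lies the MEK5-ERK5-MEF2 pathway. Its list held 9 genes, of kinases, of MEF2 factors and of the deacetylase HDAC5, and did not sort activators from repressors. Of these 9 genes 3 fell and none rose (median -0.02). MAP2K5, the gene of the kinase MEK5, went from 11.4 to 1.83 CPM (-2.63), MEF2A from 53.7 to 17.1 CPM (-1.65) and MEF2C from 1.86 to 0.845 CPM (-1.12). Another 3 of the 9, named after their values were seen, were higher in every NCD library and passed the p threshold only: MAPK7, the gene of ERK5 (14.3 to 24.9 CPM, 0.80), MEF2D (30.7 to 58 CPM, 0.92) and HDAC5 (18.9 to 35.2 CPM, 0.90). Of 8 TGF-beta and SMAD genes, upstream of KLF10 and KLF11, 3 fell and none rose (median -0.59). These were TGFB2 (56.6 to 13.1 CPM, -2.10), the receptor gene TGFBR2 (161 to 50.2 CPM, -1.68) and SMAD3 (85.1 to 28.3 CPM, -1.59). Of 6 YAP-TEAD genes, whose products act with KLF5, TEAD1 (267 to 26.4 CPM, -3.34), YAP1 (299 to 111 CPM, -1.42) and WWTR1 (95.4 to 31.1 CPM, -1.62) fell and TEAD3 (21.6 to 54.3 CPM, 1.33) rose (median -0.98). The genes of these 5 lists that fell span 87.6 to 269.9 kb, and the part of span in their values was not tested.

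KLF9 and KLF15 are glucocorticoid-induced, and of 8 tested genes of that list 3 rose and 2 fell (median 0.39). TSC22D3 (10.2 to 65.7 CPM, 2.69) and DUSP1 (29.6 to 103 CPM, 1.80) rose, while ERRFI1 (291 to 92.1 CPM, -1.66) and the receptor gene NR3C1 (96.1 to 33.5 CPM, -1.52) fell. At any fold, 4 of the 8 were higher and 4 lower at an adjusted p below 0.05. Of all tested genes 69.3% passed that threshold. NR3C1 spans 157.6 kb, and genes longer than 153.1 kb had a median log2 fold change of -2.09. The part of span in its value was not tested. Among 15 tested genes reported as targets of the 10 factors 3 rose and 2 fell (median -0.10). ATF3 (6.34 to 58.5 CPM, 3.21), TNFAIP2, a reported target of KLF5 (48.6 to 138 CPM, 1.5), and CDKN1A, the cell cycle inhibitor gene reported as a target of KLF4 and KLF6 (61.2 to 127 CPM, 1.05), rose. ENG, a TGF-beta co-receptor gene reported as a target of KLF6, went from 83.9 to 27.7 CPM (-1.6).

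**Figure D5:**
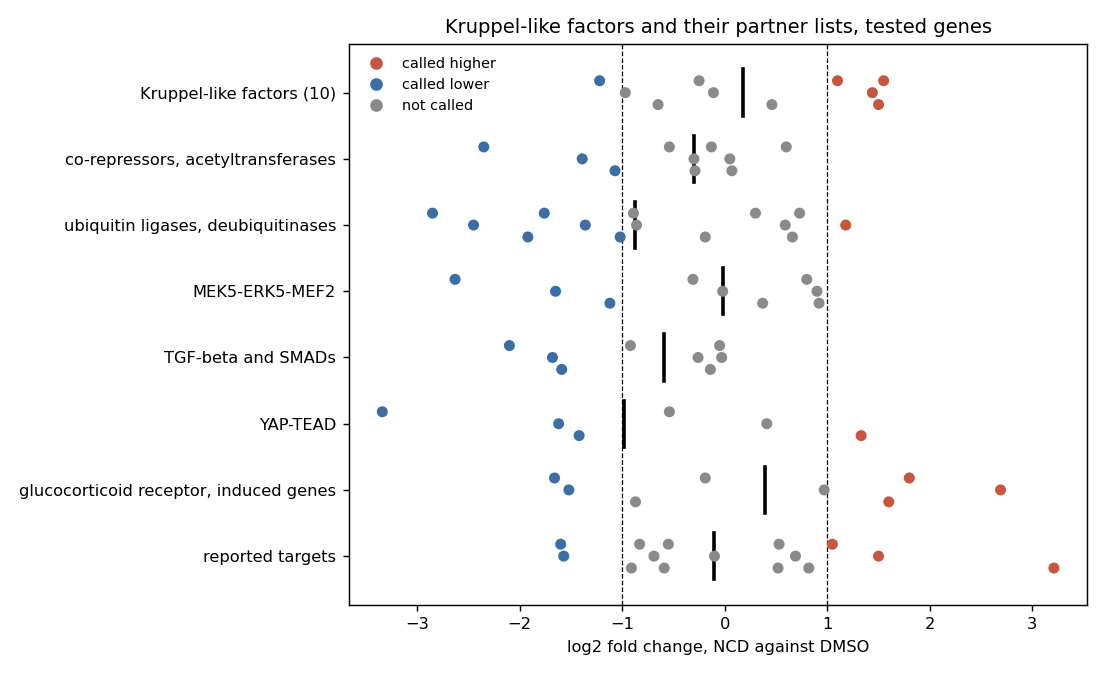
Log2 fold change, NCD against DMSO, of every tested gene of the 10 Kruppel-like factors and of 7 lists of partners (points; black bars are the list medians and dashed lines the fold threshold of 1 in each direction). The medians lie at -0.88 for ubiquitin ligases and deubiquitinases and at -0.98 for YAP-TEAD genes, against 0.17 for the Kruppel-like factors.

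For KLF4, which had the largest fold change with all libraries, the genes with the most similar pattern over the 6 libraries were sought among the 11049 genes whose mean over all 6 libraries reached 5 CPM, by Euclidean distance of centred log2 CPM. JUP, the gene of the junction protein plakoglobin, was nearest (distance 0.177) and went from 4.88 to 15 CPM. LMO4 (0.182; 31.4 to 94.4 CPM) and TSPAN33 (0.183; 5.79 to 16.9 CPM) followed. Since the distance is taken over the same 6 libraries, a like difference between the groups follows from the choice and is no result. The mean of JUP with DMSO alone was below 5 CPM.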

How the data were processed

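RNA-seq of 6 MDA-MB-231 libraries was used. The authors aligned reads and deposited expected counts per Ensembl gene, not normalized, and the submitters' processing notes name HISAT2, RSEM and the builds GRCh38 and hg38. The annotation release and strandedness are not given in the sources used here. A free-text field gives a different line number for NCD replicates 2 and 3, whereas the cell line field has MDA-MB-231 for all 6. In each file 25 lines without a gene or count were skipped. Gene positions and lengths came from GENCODE 29 and promoter windows from RefSeq. No window was found for KLF3, and windows on chromosome 8, where KLF10 lies, were left out for the members.

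Expected counts were rounded and tested with edgeR 4.0.16 in R 4.3.3 (TMM factors 0.911 to 1.09, filterByExpr, glmQLFit and glmQLFTest, Benjamini-Hochberg over 15295 genes), after the code was tested on simulated data. Standard errors are the absolute log2 fold change over the root of F. Ratios were tested with scipy 1.17.1. Tables were handled in numpy 2.4.6 with pandas 2.3.3, and plots were drawn in matplotlib 3.10.9. Members and lists were chosen with earlier results of these data known. Named genes are the 10 members, the KLF and Sp families, up to 4 called genes with the smallest p of each other list, and the 3 genes nearest to the member with the largest change. SIN3A, SIN3B, MAPK7, MEF2D and HDAC5 were named after their values were seen. Alternatives were DESeq2 1.42.0 with adjusted or unadjusted P, limma-voom (3.58.1), library totals, RLE factors, a minimum of 10 counts per library or no count filter, p alone without the fold, a replicate block, 1 count added in ratios and each library left out. No 2 libraries agreed within sampling noise (chi-square per degree of freedom at least 2.06). Intervals cover the spread of these libraries, and the totals of 18223594 to 21629653 counts leave genes of a few counts unmeasured.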

Additional observations from a re-analysis of the deposited data

How the results depend on the processing

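KLF4, KLF5, KLF6 and KLF11 kept their direction and stayed past both thresholds under all 14 alternatives run for each, with log2 fold changes of 1.43 to 1.75, 1.42 to 1.69, -1.29 to -1.03 and 1.36 to 1.64. KLF3 (0.34 to 0.66), KLF13 (-0.72 to -0.45) and KLF2 (-0.41 to -0.06) kept their direction and did not pass. Leaving out 1 library at a time gave -1.17 to -0.83 for KLF7 and 0.98 to 1.19 for KLF9, 3 to 4 members called higher, 1 to 2 called lower, and 4653 to 5049 genes called. Without a fold threshold 10602 genes were called, and 3 members were lower. The sign of KLF10 turned to 0.08 with library totals (edgeR adjusted p = 0.355). The KLF4 to KLF5 ratio ranged from -0.09 to 0.17 without 1 library and was -0.09 without DMSO replicate 2 (exact p = 0.4). The cause was not tested.

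Whether the replicate numbers pair the samples is not known. Deviations of same-numbered libraries correlated at 0.152, -0.149 and 0.005, and those of differently numbered libraries at -0.232 to 0.234. So few libraries cannot show that the samples were unpaired. With the replicate block 4723 genes were called against 4736, and no call of a member changed. KLF2, KLF7 and KLF9 had the fewest counts of the members, and depth limits them most.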
